A study of Mus musculus with 6 samples.

Results

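The genes of the HIF pathway examined here were the HIF subunits Hif1a, Epas1 and Arnt, the oxygen sensors Egln1, Egln2, Egln3 and Hif1an, the ubiquitin ligase subunit Vhl, and a pair of HIF target genes, Bnip3 and Vegfa. These 10 genes were taken by symbol from the 24421 genes of the count matrix, and all 10 passed the filter that left 11658 genes for testing. The libraries were made from regulatory T (Treg) cells, which hold back other T cells and carry the transcription factor Foxp3. CD4+YFP+ cells were sorted from spleens of untreated C57BL/6 female mice, 8 to 11 weeks old, and RNA sequencing (RNA-seq) gave 1 library per mouse. The 3 WT mice carried Foxp3Cre, a Foxp3 allele that also makes the Cre recombinase fused to YFP, and the 3 KO mice carried Foxp3Cre together with miR-142fl/fl. Cre is made in Foxp3-expressing cells, so that miR-142 was removed in the sorted cells and the WT cells carried Cre as well. Both groups were biological replicates matched for age and sex. The paper reports that mice of the KO genotype developed a systemic autoimmune disease with inflamed organs. It names this inflammation as a possible influence on gene expression in their Treg cells. Loss of miR-142 and the disease of the mice cannot be told apart in this comparison.

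HIF is a transcription factor made of an oxygen-labile alpha subunit, HIF-1alpha from Hif1a or HIF-2alpha from Epas1, and the stable beta subunit from Arnt. In the presence of oxygen the prolyl hydroxylases encoded by Egln1, Egln2 and Egln3 mark the alpha subunit for capture by VHL and degradation, and the asparaginyl hydroxylase from Hif1an blocks its contact with coactivators. Most of this control acts on protein, which RNA counts do not measure. In T cells HIF-1alpha is known for driving glycolysis and for shaping the balance between Treg and effector T cells.

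In miR-142-deficient Treg cells, Epas1 transcripts were 8.81-fold higher than in WT cells, and Epas1 was the only member called at a false discovery rate (FDR) under 0.05. Hif1a, its partner Arnt, Vhl, Egln1, Egln2, Hif1an and Bnip3 had fitted changes of at most 0.19 on the log2 scale in either direction, with WT and KO libraries that overlapped. Egln3 and Vegfa lay higher in each KO library than in each WT library but did not pass the threshold. Thus 1 of the 10 members (10%) was called, against 18.8% of all genes tested, and 1 was called higher, against 11.6% of all genes. No member was called lower, against 7.27% of all genes, and 3 members reached an unadjusted p under 0.05 in the same test, against 34.8% of all genes. The 2 groups had separate ranges for 3 of the 10 members (30%) and for 41% of all genes tested. DESeq2 also called 1 member higher and 0 lower.

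The deleted gene makes the following mature miRNAs, which are shown because a search of the members' 3′ UTRs used their seeds, bases 2 to 8, given in capitals. The sequences are from RefSeq (GRCm38.p6), both on the plus strand of chromosome 11.
miR-142a-3p, chr11:87756903-87756925: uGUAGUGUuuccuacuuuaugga
miR-142a-5p, chr11:87756867-87756887: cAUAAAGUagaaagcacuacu

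For miR-142-3p a second seed shifted by 1 base (here 3p.2, with the standard seed as 3p.1) was searched as well, since this miRNA is known to occur with a shifted 5′ end. The sites were the complement of a seed over 7 bases (ACACTAC for 3p.1, AACACTA for 3p.2 and ACTTTAT for 5p), the same with an A after it, or its last 6 bases followed by an A, on the transcript strand only. Among the members, 3 of 10 held a site in the longest annotated 3′ UTR, and 37.4% of the 10786 tested genes with an annotated 3′ UTR did. The 3 were Hif1a, Epas1 and Egln3. A 5p site was present in all 3 of them and in 23.5% of tested genes, a 3p.2 site in Hif1a and in 15.4%, and a 3p.1 site in 0 members and in 12.2%. Arnt, Vhl, Egln1, Egln2, Hif1an, Bnip3 and Vegfa held none of these letters in that stretch. The sites below are in the last exon of each gene and are printed 5′ to 3′ on the transcript strand, read from GENCODE vM21 transcripts (GRCm38), with the site in capitals.
Hif1a, 3p.2, plus strand, chr12:73946821-73946848: ctctttgtggttgggtctAACACTAAct
Epas1, 5p, plus strand, chr17:86831258-86831284: cctttatctgacatgctcACTTTATta
Epas1, 5p, plus strand, chr17:86833337-86833364: taactgtacgggagcttaACTTTATAag
Egln3, 5p, minus strand, chr12:54180322-54180348: ggactgcttcttattcgcACTTTATgt

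The 3′ UTR of Epas1 is 2308 bases long, and its 5p sites start at bases 174 and 2253 of it. Hif1a also held a pair of 7-base 5p sites of the weaker kind, CTTTATA, at 73946358 to 73946364 and 73946974 to 73946980 of chromosome 12. A match of letters describes the sequence and does not by itself show that the miRNA binds there. For Hif1a the paper gives further evidence. From a reporter assay with the AACACTAA site mutated, it reports direct repression by miR-142-3p through that site. The paper also reports an Ago2 binding peak there in activated CD4+ T cells. In KO Treg cells it reports more HIF-1alpha protein but no change in Hif1a mRNA. Its text describes no such assays for Epas1 or Egln3.

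Total counts ranged from 13883069 to 24042994 per library, and a count of 3 corresponded to between 0.123 and 0.227 CPM (counts per 1000000 counts of a library, with library sizes scaled by TMM factors). Means are given ± SD (n = 3 libraries per group), and fold changes give KO relative to WT, with the standard error (SE) or 95% confidence interval of edgeR's quasi-likelihood F (QLF) test. Mir142b, which is annotated on the strand opposite to Mir142, had 147, 101 and 105 counts in the WT libraries and 7, 5 and 5 in the KO libraries (log2 fold change -4.07, FDR = 0.00132), and Mir142 had 0 counts in all 6. The 7 Treg and T cell markers, among them Foxp3, Il2ra and Cd4, were above 1 CPM in all 6 libraries. Il2ra (log2 fold change 1.77, FDR = 0.00088) and Tnfrsf18 (0.81, FDR = 0.00877) were called higher in KO. Foxp3, Ctla4, Ikzf2, Cd4 and Cd3e were not called. Each KO library was above each WT library for Foxp3 and below each WT library for Cd4 and Cd3e. Summed markers of macrophages, neutrophils, B cells and erythroid cells were higher in each KO library than in each WT library, and highest in KO replicate 1. The CD8 and NK cell sum was above WT in KO replicate 1 only. The 12 macrophage markers summed to 2877 CPM there, against 86.7 and 20.6 CPM in KO replicates 2 and 3 and 10.2 to 13.8 CPM in WT, and 12 of them exceeded 1 CPM there, against 11 in KO replicate 2, 4 in KO replicate 3 and 3 in each WT library. The 12 neutrophil markers found in the matrix summed to 977 CPM there, to 7.87 and 41.5 CPM in KO replicates 2 and 3 and to 0.277 to 1.29 CPM in WT, with 12 above 1 CPM there, up to 3 in the other KO libraries and 0 in WT. Of 8 B cell markers in the matrix, 8 exceeded 1 CPM in KO replicate 1 and 3 in each other library, with sums of 2320 CPM there, 202 and 285 CPM in KO replicates 2 and 3 and 60.1 to 72.4 CPM in WT. In KO replicates 2 and 3 the largest single part of the B cell sum was Cd74 (194 and 273 CPM). For the macrophage sum it was Vcam1 (35.1 and 11.2 CPM), and for the neutrophil sum Mpo (6.21 and 32.2 CPM). Some markers (Cd79a, Cd79b, Cd68 and Itgam) were below every WT library in KO replicates 2 and 3, and others, such as Adgre1 and Csf1r, were above. The CD8 and NK cell list summed to 57.8 CPM in KO replicate 1 and 18.5 to 23.5 CPM elsewhere, and the sum of the erythroid markers was 13.4 CPM in KO replicate 1, 2.95 and 2.81 CPM in KO replicates 2 and 3 and 0.885 to 1.11 CPM in WT. Of the lists of other cell types, Mpo and Elane (neutrophil granule enzymes, FDR of 0.00633 and 0.01), Vcam1 (macrophage list, 0.0251), Cd74 (B cell list, 0.0234) and Klf1 (erythroid list, 0.00243) were called higher in the QLF test, with all 3 KO libraries above WT, and Klrb1c (NK cell list, 0.0308) was called lower. Mpo, Elane and Klf1 passed the filter of 1 CPM in 3 libraries through their KO libraries alone. The other neutrophil markers did not enter the test. Values without KO replicate 1 are given beside the members and the called genes of the pathway lists below for which that library was highest or changed a call. They are not given for the marker genes or for Hmox1, a HIF target described below. In sorted bulk samples a larger number of expressing cells and more RNA per cell cannot be told apart.

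Epas1 (GRCm38, chromosome 17, 86753700 to 86833410) encodes HIF-2alpha, best known from endothelial cells, kidney and other tissues. It had 10.2, 8.81 and 15.4 CPM in WT replicates 1, 2 and 3 and 91.7, 66.4 and 144 CPM in KO replicates 1, 2 and 3, from counts of 165, 215 and 278 against 1652, 877 and 2104. All 3 KO libraries were far above all 3 WT libraries, with no overlap. The group means were 11.5 ± 3.47 and 101 ± 39.6 CPM, which gave a log2 fold change of 3.14 (SE 0.34, FDR = 0.00194), or 8.81-fold with a 95% confidence interval of 5.11 to 15.2. The exact two-sided permutation test gave p = 0.1, the smallest value that 3 against 3 libraries allow. Leaving out any 1 library gave log2 fold changes of 2.78 to 3.41 and an FDR of at most 0.0186. Without KO replicate 1 it was 3.19 (FDR = 0.000939).

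**Figure D1:**
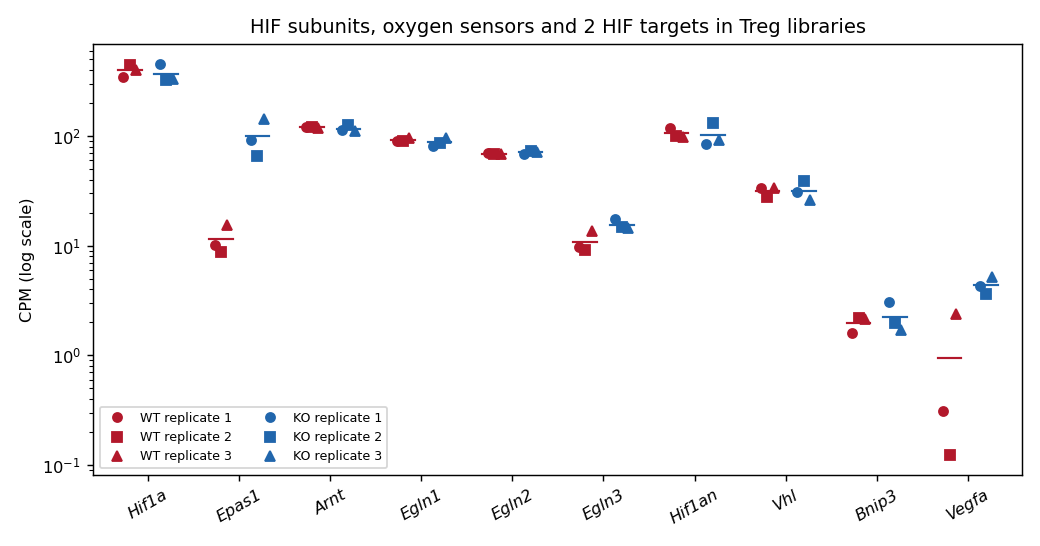
CPM of the 10 genes (vertical axis, log scale) in the 3 WT libraries (red) and 3 KO libraries (blue), with marker shape for the replicate number and a bar at each group mean. Epas1, Egln3 and Vegfa are the genes whose KO and WT points do not overlap, and Hif1a is the most abundant gene in both groups by CPM.

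Macrophages and endothelial cells can express Epas1, so their markers were read beside it. Epas1 was highest in KO replicate 3, at 144 CPM, where the macrophage sum was the lowest of the KO libraries (20.6 CPM). KO replicate 1, with 2877 CPM of macrophage markers, had 91.7 CPM of Epas1. Some single markers, picked out after their values were seen, had the same order as Epas1 over the KO libraries. Mpo was at 16.8, 6.21 and 32.2 CPM in KO replicates 1, 2 and 3, against 0.801 CPM or less in WT, and Klf1 at 1.39, 1.14 and 1.64 CPM, against 0.123 CPM or less. Among the endothelial markers, Cdh5 and Tek were at 1.05 CPM or less in all 6 libraries, Emcn had 0 counts in all of them, and Tie1 was at 0.205 CPM in KO replicate 3 and 0 elsewhere. Vwf reached 2.05 CPM in KO replicate 3, 1.72 in KO replicate 1 and 0.908 in KO replicate 2, against 0.0553 CPM or less in WT. The sum of the endothelial list lay between 221 and 304 CPM in all libraries, nearly all of it Pecam1, which T cells express too. The part of any of these cells in the Epas1 values was not tested.

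**Figure D2:**
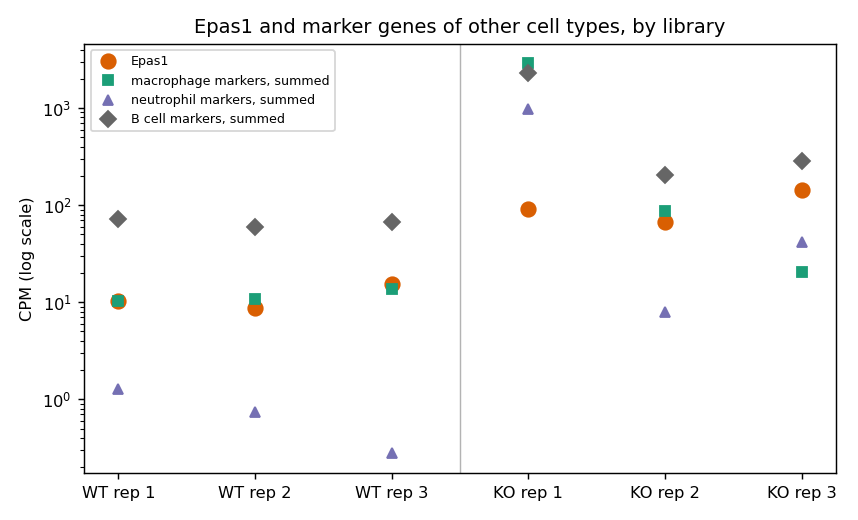
CPM (log scale) of Epas1 and the summed CPM of the macrophage, neutrophil and B cell markers in each of the 6 libraries. The 3 marker sums peak in KO replicate 1, and Epas1 is highest in KO replicate 3. The B cell, macrophage and neutrophil sums are above WT in all 3 KO libraries, as Epas1 is. In KO replicates 2 and 3 the largest single parts of these sums are Cd74 (B cell), Vcam1 (macrophage) and Mpo (neutrophil).

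Hif1a (chromosome 12, 73901375 to 73947530) encodes HIF-1alpha, the widely expressed alpha subunit. On the RPKM scale (CPM per kilobase of exon), on which levels of different genes can be compared, it had 67.3 ± 8.13 in WT and 63.1 ± 12.7 in KO, the highest level of the 10 genes in both groups. Its KO libraries at 459, 325 and 333 CPM enclosed the WT libraries at 347, 442 and 400 CPM. The log2 fold change of -0.09 had a 95% confidence interval of -0.47 to 0.28, which leaves room for changes between 0.724-fold and 1.22-fold. KO replicate 1, the library with the macrophage and neutrophil markers, was the highest of the 6 for Hif1a. Without it the fold change was -0.286 on the log2 scale and still not called (FDR = 0.155). The part of those cells in the value of KO replicate 1 was not tested.

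Because Epas1 was higher and Hif1a was not, the make-up of the alpha subunit transcripts differed between the groups. On the per-length scale Epas1 made up 3.00%, 2.06% and 3.89% of the sum of both alpha subunits in the WT libraries (replicates 1, 2 and 3), and 17.4%, 17.7% and 31.3% in the KO libraries in the same order. The groups did not overlap. Hif1a was the more abundant alpha subunit per length in all 6 libraries. The log2 ratio of Epas1 to Hif1a counts within a library, which does not depend on library scaling, was 3.20 higher in KO than in WT (-1.94 ± 0.63 against -5.14 ± 0.48). This ratio was chosen after the values of Epas1 had been seen, and its exact two-sided permutation p was 0.1, the smallest possible.

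Arnt (chromosome 3, 95434388 to 95497240) encodes HIF-1beta, the common partner of both alpha subunits and of the aryl hydrocarbon receptor. It was among the steadiest members, with 122, 121 and 118 CPM in WT and 113, 127 and 112 CPM in KO. The groups overlapped, and the log2 fold change of -0.04 (SE 0.08, FDR = 0.784) had a 95% confidence interval of -0.23 to 0.16. The ratio of Hif1a to Arnt counts within a library was 1.72 ± 0.19 in WT and 1.65 ± 0.34 in KO on the log2 scale (exact two-sided permutation test, p = 0.9).

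Arnt2, a close relative of Arnt that can also pair with HIF alpha subunits and is best known from the nervous system, was higher in KO cells. It had 17.6, 11.7 and 14.9 CPM in WT replicates 1, 2 and 3 and 125, 70.2 and 68.8 CPM in KO replicates 1, 2 and 3. The groups were separate, and the log2 fold change was 2.58 (SE 0.28, FDR = 0.00198), or 5.99-fold. Without KO replicate 1, the highest library, the log2 fold change was 2.22, and Arnt2 was called in all 15 alternative fits. Per length, Arnt2 made up 11.3% ± 1.99 of the sum of Arnt and Arnt2 in WT and 43.1% ± 9.12 in KO. Sites of these kinds were held by 37.4% of tested genes. Among genes of the pathway lists below they were present in called ones, such as Rbx1, Cul2, Slc2a1 and Insig2. They were also present in uncalled ones, such as Siah1a, Ep300, Kdm3a and Pdk1. The part of any site in the rise of Arnt2 was not tested. The longest 3′ UTR of Arnt2 (chromosome 7, minus strand, 3778 bases) held a 3p.1 site and a 5p site, printed here for comparison with those of the HIF subunits, with the site in capitals.
Arnt2, 3p.1, minus strand, chr7:84248728-84248754: tcttacggttagggtcacCACTACAtg
Arnt2, 5p, minus strand, chr7:84249842-84249868: gatctttgtatttattgtACTTTATct

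The prolyl hydroxylases were expressed at unequal levels. Egln1 (PHD2, chromosome 8, 124908587 to 124949324), known as the main HIF hydroxylase in most cells, had 90.2, 90.6 and 96.3 CPM in WT and 81.4, 86.2 and 95.2 CPM in KO. Its log2 fold change was -0.08 (95% confidence interval -0.29 to 0.13, FDR = 0.58), and the groups overlapped through KO replicate 3. Egln2 (PHD1, chromosome 7, 27158658 to 27166802) varied least relative to its mean in both groups, with 69.8, 68.0 and 69.1 CPM in WT and 69.3, 72.4 and 71.0 CPM in KO. The ranges overlapped, and its log2 fold change was 0.04 (95% confidence interval -0.13 to 0.21, FDR = 0.739). Its exons share 11 bases with Cyp2t4 on the other strand, whose reads there cannot be told apart from its own.

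Egln3 (PHD3, chromosome 12, 54178981 to 54203860) is a hydroxylase that HIF itself is known to induce. It had 9.73, 9.06 and 13.6 CPM in WT replicates 1, 2 and 3 and 17.5, 14.8 and 14.5 CPM in KO replicates 1, 2 and 3. The KO libraries all lay above the WT libraries, which was so for 22.2% of all genes tested, but the gap between WT replicate 3 and KO replicate 3 was small. The log2 fold change of 0.53 (SE 0.19, 95% confidence interval 0.08 to 0.99) had an unadjusted p of 0.0272 and an FDR of 0.0968 in the QLF test. Egln3 was not called in any of the 15 alternative fits. Those include the stricter FDR and the joint call by QLF, likelihood ratio and exact tests, which could not add a call. Without KO replicate 1 the log2 fold change was 0.429. Within the sum of the 3 hydroxylases per length, Egln3 made up 6.43% to 9.03% in WT libraries and 9.51% to 12.2% in KO libraries, Egln1 46.8% to 47.6% and 41.9% to 46.2%, and Egln2 43.6% to 46.4% and 44.3% to 46.7%.

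The balance between the main alpha subunit and its hydroxylases was compared within libraries. The log2 ratio of Hif1a to the sum of Egln1, Egln2 and Egln3 counts was 1.03, 1.40 and 1.16 in WT and 1.45, 0.91 and 0.88 in KO, with a difference of -0.12 (exact two-sided permutation test, p = 0.6). KO replicate 1 was again the highest, and the other KO libraries were the lowest. The log2 ratio of Egln1 to Egln2 was 0.42 ± 0.05 in WT and 0.30 ± 0.10 in KO, a difference of -0.12 (p = 0.3 by the same exact test).

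Hif1an (FIH, chromosome 19, 44562850 to 44576274) blocks the binding of coactivators to HIF alpha subunits. It had 118, 101 and 98.9 CPM in WT and 84.6, 133 and 91.6 CPM in KO, so that the KO libraries enclosed the WT libraries. The log2 fold change was -0.04 (95% confidence interval -0.46 to 0.37, FDR = 0.885), and its sign depended on which library was left out. Without KO replicate 2, the highest library, it was -0.261 (FDR = 0.126), and without KO replicate 1 it was 0.0639.

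Vhl (chromosome 6, 113623959 to 113631633), the substrate-binding subunit of the ligase that destroys hydroxylated HIF alpha, averaged 31.6 ± 3.30 CPM in WT libraries and 31.8 ± 6.25 CPM in KO libraries. The KO libraries at 30.6, 38.6 and 26.3 CPM enclosed the WT libraries at 33.6, 27.8 and 33.5 CPM. The log2 fold change of 0.01 (95% confidence interval -0.37 to 0.39, FDR = 0.975) was the nearest to 0 of the 10 genes, and its sign turned with the scaling (-0.0011 with RLE size factors).

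**Figure D3:**
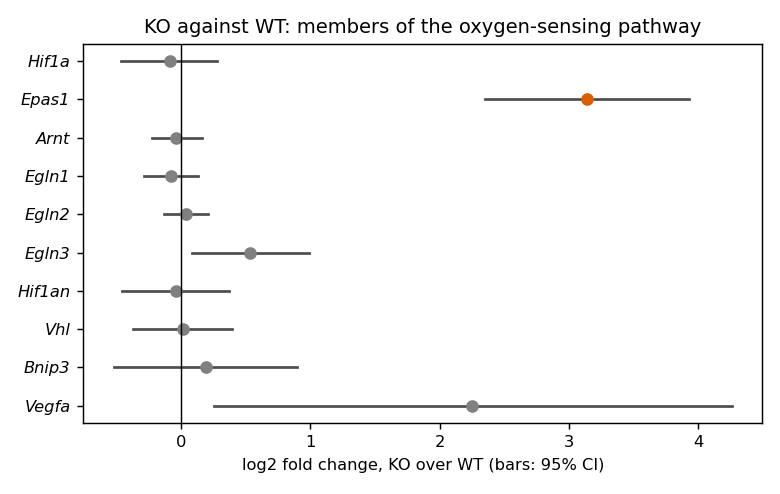
Log2 fold change of KO over WT with its 95% confidence interval (horizontal axis) for the 10 genes, in orange where the FDR was under 0.05. Epas1 is the gene called, at 3.14, and the intervals of Egln3 and Vegfa start above 0 without a call.

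The pair of HIF target genes among the members was rare in these cells. Vegfa (chromosome 17, 46016993 to 46032369), the growth factor that draws blood vessels into hypoxic tissue, had 5, 3 and 43 counts in WT replicates 1, 2 and 3 and 78, 48 and 76 counts in KO replicates 1, 2 and 3. On the CPM scale this was 0.308, 0.123 and 2.38 in WT against 4.33, 3.63 and 5.20 in KO. The groups did not overlap, but WT replicate 3 was far above the other WT libraries. The log2 fold change was 2.25 (SE 0.86, 95% confidence interval 0.25 to 4.26) with an unadjusted p of 0.032 and an FDR of 0.107 in the QLF test. Without WT replicate 3 it was 4.38 and called (FDR = 0.00936), and without any other library it lay between 1.68 and 2.38 and was not called. Without KO replicate 1 it was 2.27 (FDR = 0.0941). Vegfa passed the filter of 1 CPM in 3 libraries through its KO libraries and WT replicate 3.

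Bnip3 (chromosome 7, 138890836 to 138909519), a mitochondrial protein that tags mitochondria for removal and is induced by HIF in many cells, had 26, 53 and 39 counts in WT and 55, 26 and 25 in KO. The CPM values of 1.60, 2.17 and 2.16 in WT and 3.05, 1.97 and 1.71 in KO overlapped, with KO replicate 1 the highest. The log2 fold change was 0.19 (95% confidence interval -0.52 to 0.90, FDR = 0.702), and it was -0.131 without KO replicate 1. At these counts the interval still held a 1.86-fold higher level.

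Ordered by mean RPKM in WT cells, the members ran from Hif1a (67.3) through Egln1 (25.7), Egln2 (24.6), Hif1an (16.1), Arnt (15.0), Vhl (10.6), Egln3 (4.06), Epas1 (2.05) and Bnip3 (0.873) to Vegfa (0.219). Hif1an and Arnt overlapped in their WT libraries, the other neighbours did not. In KO cells Epas1 moved from rank 8 to rank 4, at 18.0 ± 7.08 RPKM, and its libraries overlapped with those of Egln1 above it and Hif1an below it. Vegfa and Bnip3 overlapped in KO cells, at 1.02 ± 0.183 and 0.991 ± 0.314 RPKM. Reads were counted without regard to strand, and exons of Hif1a share 330 bases with the antisense gene Gm15283 and 148 with Gm49321 on its own strand. Those of Bnip3 share 504 bases with the antisense gene Gm45507. Reads of these genes cannot be told apart there.

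The genes whose pattern over the 6 libraries was closest to that of Hif1a, by Euclidean distance of centred log2 CPM, were Csgalnact2, Pot1b and Fam102b, at distances of 0.147, 0.151 and 0.153, against a median of 0.727 over all tested genes. Csgalnact2, a Golgi enzyme that builds chondroitin sulfate, had 22.1, 26.2 and 27.2 CPM in WT and 28.3, 20.1 and 20.7 CPM in KO. Like Hif1a these 3 genes were highest in KO replicate 1 and lowest in KO replicates 2 and 3.

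HIF binds DNA at a core of ACGTG or GCGTG. These letters were searched on both strands of RefSeq promoters (GRCm38.p6), from 250 bases before a gene's start to 50 after it, in which a CACGTG match counts on both strands. Entries were found for 9 of the 10 members, all but Epas1, so that these counts do not cover the member that was called. Of these, 7 held the core in at least 1 promoter (Hif1a, Arnt, Egln1, Egln2, Egln3, Bnip3 and Vegfa), and Vhl and Hif1an did not, while 43.8% of 32851 promoters held it. The members were counted by gene over all their promoter entries and the 32851 by single promoter, so the shares differ in unit. Vegfa held the core only in the entry at 46025114 to 46025413, not in the entry at its annotated start. A single core of each of the HIF-induced members Egln3 and Bnip3 is shown in capitals with its surroundings, as examples among the members that HIF is known to induce. Egln3 held 1 match and Bnip3 held 5. Further matches of Bnip3 lie in the stretch shown without being marked.
Egln3, minus strand, chr12:54204087-54204115: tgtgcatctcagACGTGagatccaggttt
Bnip3, minus strand, chr7:138909597-138909625: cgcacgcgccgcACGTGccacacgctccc

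Neither Egln3 nor Bnip3 was called, as given above, and the presence of the letters does not show that HIF binds there.

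Other genes of the pathway were read from 4 lists. Of 20 genes for further HIF subunits, VHL ligase subunits, coactivators and modifiers, all tested, 3 were called higher and 0 lower (15%, against 18.8% of all genes), with a median log2 fold change of 0.07 against 0.0164 over all genes tested. Beside Arnt2 these were Rbx1 and Cul2, the RING and scaffold subunits of the VHL ligase. Rbx1 averaged 36.1 ± 0.226 CPM in WT libraries and 51.6 ± 6.26 CPM in KO libraries (log2 fold change 0.51, SE 0.11, FDR = 0.0191), and it was not called without WT replicate 1, 2 or 3 (FDR of 0.0747, 0.0845 and 0.0754). Cul2 averaged 39.3 ± 3.58 and 52.6 ± 2.12 CPM (log2 fold change 0.42, SE 0.10, FDR = 0.0278). Its call was lost without KO replicate 1 (FDR = 0.0661), KO replicate 3 (0.0575) or WT replicate 1, 2 or 3 (0.102, 0.109 and 0.0562). Hence among the parts of the VHL ligase Cul2 and Rbx1 were called, and Vhl and the elongins Tceb1 and Tceb2 were not, with log2 fold changes of 0.09 for Tceb1 and 0.22 for Tceb2.

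Of 35 hypoxia-induced genes in the list of HIF targets, 27 entered the test. Of these 3 were called higher and 0 lower (11.1%, against 18.8% of all genes), and the median log2 fold change was 0.24, against 0.0164 over all genes. Ndrg1, a stress-induced gene, rose from 21.8 ± 3.17 to 35.9 ± 2.26 CPM (log2 fold change 0.72, SE 0.14, FDR = 0.0134). Slc2a1, the glucose transporter GLUT1, rose from 50.9 ± 5.24 to 76.8 ± 9.52 CPM (0.59, SE 0.12, FDR = 0.0177). Insig2, a brake on cholesterol synthesis, rose from 22.4 ± 1.14 to 33.1 ± 3.35 CPM (0.56, SE 0.12, FDR = 0.018). These calls were lost for Ndrg1 without WT replicate 2 (FDR = 0.0508), for Slc2a1 without WT replicate 1 or 2 (0.0742 and 0.0871), and for Insig2 without WT replicate 1, 2 or 3 (0.0562, 0.087 and 0.0826) or KO replicate 3 (0.0568). Without KO replicate 1, where Slc2a1 was highest, its log2 fold change was 0.472 (FDR = 0.0272), and 4 target genes were called higher and 2 lower. Hmox1, singled out after its values were seen, had 313 CPM in KO replicate 1, against 12.5 and 4.45 CPM in KO replicates 2 and 3 and 5.24 to 5.86 CPM in WT, and was not called (FDR = 0.0823). The part of the macrophage markers of that library in the Hmox1 value was not tested.

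In the list of 15 glycolysis genes known to respond to HIF, 14 were tested and 2 were called higher, with 0 lower (14.3%, against 18.8% of all genes). The median log2 fold change was 0.28, and 13 of the 14 were positive, as were 6037 of all 11658 genes. Pkm, pyruvate kinase, rose from 344 ± 17.2 to 492 ± 69.8 CPM (log2 fold change 0.52, SE 0.12, FDR = 0.0263), and Tpi1, triosephosphate isomerase, from 40.3 ± 4.50 to 79.8 ± 25.8 CPM (0.99, SE 0.23, FDR = 0.0278). Both calls were lost without WT replicate 1, 2 or 3 or KO replicate 3, with an FDR of 0.0841, 0.097, 0.109 and 0.0742 for Pkm and of 0.0697, 0.112, 0.101 and 0.0728 for Tpi1. Pkm was not called with library size alone either (FDR = 0.0512). Both were highest in KO replicate 1, without which the log2 fold changes were 0.398 for Pkm (FDR = 0.0471) and 0.742 for Tpi1 (FDR = 0.0348). Without KO replicate 2 the list had 6 calls, and without KO replicate 1 it had 2 and a median of 0.23. Eno1 had 0 counts in every library and Gapdh between 3.57 and 7.66 CPM, and the values of glycolysis genes with near-identical copies in the genome are uncertain.

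**Figure D4:**
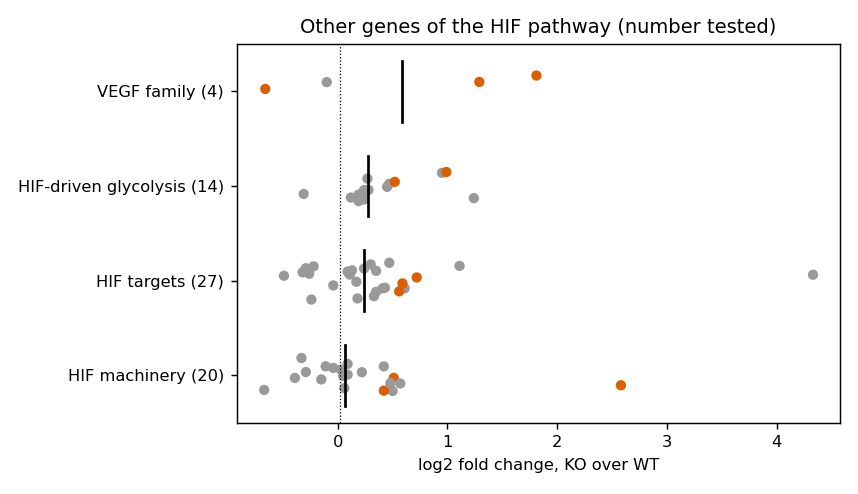
Log2 fold change of KO over WT (horizontal axis) for each tested gene of the 4 lists (rows, with the number tested), in orange where the FDR was under 0.05, with a black bar at the list median and a dotted line at the median of all tested genes. The orange point at 2.58 among the machinery genes is Arnt2, and the grey point at 4.33 among the targets is Hmox1.

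Among 9 relatives and receptors of Vegfa, 4 passed the filter, of which 2 were called higher and 1 lower (75%, against 18.8% of all genes). Vegfc, a growth factor of lymphatic vessels, rose from 0.956 ± 0.145 to 2.33 ± 0.445 CPM (log2 fold change 1.29, SE 0.28, FDR = 0.0208). It passed the filter of 1 CPM in 3 libraries through its KO libraries and WT replicate 1, so its place among the tested genes depended on its KO values. With CPM above 1 required in all 6 libraries, 3 genes of the list were tested, with 1 called higher and 1 lower. Nrp2, a co-receptor for VEGF and semaphorins, rose from 4.54 ± 0.865 to 15.9 ± 8.81 CPM (1.81, SE 0.43, FDR = 0.027). Nrp2 was highest in KO replicate 1, at 24.9 CPM against 15.4 and 7.32 CPM in KO replicates 2 and 3, and without it the log2 fold change was 1.30 (FDR = 0.0308). Nrp1, the co-receptor that marks thymus-derived Treg cells, fell by 0.66 on the log2 scale (SE 0.09, FDR = 0.00497). The calls of Vegfc and Nrp2 were lost without WT replicate 1, 2 or 3, with an FDR of 0.0531, 0.0989 and 0.0826 for Vegfc and of 0.0843, 0.0935 and 0.101 for Nrp2, whereas that of Nrp1 held in all 15 alternative fits. The VEGF receptor genes Flt1, Kdr and Flt4 were below 1 CPM in all libraries except KO replicate 1, where Flt1 had 1.72 CPM and Kdr 3.94 CPM.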

How the data were processed

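The authors aligned 51-base single-end reads to mm10 with HISAT and counted them on genes with featureCounts without regard to strand (versions not given in the sources used here), and deposited raw counts per gene without normalization. The submitters' processing notes name CASAVA, HISAT and edgeR. All 6 sample columns were used. As in the paper's methods, a gene entered the test when its CPM exceeded 1 in 3 or more libraries, using edgeR 4.0.16 in R 4.3.3 (TMM on library sizes recomputed after the filter, QLF test, Benjamini-Hochberg FDR under 0.05). CPM used these scaled sizes. SEs were the unshrunk fold change over the square root of F. RPKM used the union of GENCODE vM21 exons. Permutation tests used log2 of CPM plus 0.5, and ratios counts plus 0.5. The steps were tested on simulated counts. Every member and every called list gene was to be named. Members and lists were chosen with earlier results of these data known. Alternatives covered scaling, DESeq2 1.42.0, filters, thresholds, robust estimation, a replicate block and leaving out each library. No column of the libraries was a duplicate of another.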

Additional observations from a re-analysis of the deposited data

How the results depend on the processing

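Epas1 kept its direction and call in all 15 alternative fits (log2 fold changes of 2.78 to 3.41). Vegfa was called in 2 of 14, with 2.84 under the replicate block and 4.38 without WT replicate 3. The 14 include the stricter FDR and the joint call by the edgeR tests, which could not add a call. In the fits without 1 library, genes called ranged from 483 to 1403 higher and 208 to 937 lower, members from 1 to 2 higher, machinery genes from 1 to 3 higher and 0 to 1 lower, targets from 0 to 4 higher and 0 to 2 lower, glycolysis genes from 0 to 6 higher and VEGF family genes from 0 to 2 higher. Across those fits the log2 fold changes ranged from -0.286 to 0.00414 for Hif1a, -0.145 to 0.114 for Vhl (-0.0787 without WT replicate 2), -0.261 to 0.0639 for Hif1an (0.0183 without KO replicate 3 and 0.0171 without WT replicate 1) and -0.131 to 0.333 for Bnip3, and the difference in the Hif1a to Arnt ratio from -0.247 to 0.0831 (0.0142 without WT replicate 2). The causes were not tested.

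An FDR under 0.01 left 490 higher and 196 lower genes, 1 machinery gene, 0 targets, 0 glycolysis genes and 0 VEGF family genes called higher. Library size alone gave 1 glycolysis gene and log2 fold changes of -0.0727 for Vhl and -0.0386 for Egln2, DESeq2 1 target called lower, and a filter of CPM above 1 in all 6 libraries 1 VEGF family gene higher. Vhl was also negative with DESeq2 (-0.0134), RLE size factors (-0.0011) and no filter (-0.0117). The correlations of the deviations of same-numbered libraries were 0.0804, -0.0056 and -0.195, which gave no sign of pairing by number. The labels do not say whether same-numbered libraries were handled together, and these correlations cannot settle it. With the replicate block 545 genes were called lower, 2 members and 1 VEGF family gene were called higher, and Vhl was at -0.00296. The calls of Cul2 (FDR = 0.0746) and Vegfc (FDR = 0.0562) were lost with the block.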
